A study of Mus musculus with 2 samples.

Results

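The genes of the proteasome were examined in B16F10 cells, a mouse melanoma line, that stably expressed NRF3 or GFP. The members were 41 genes chosen by name: 7 alpha and 7 beta subunits of the core particle, 6 ATPases and 14 non-ATPase genes of the regulatory particle, 5 factors of core assembly and 2 activators. Of these, 40 were among the 19505 genes named on the array, each with 1 probe set. The expression of Psmb5 was not analysed here. Plasmids for NRF3 or, in the control, GFP had been introduced beside a vector for puromycin resistance, and puromycin selected the stable cells. Both populations then received forskolin, which activates adenylate cyclase, for 5 days, so the arrays compare NRF3 with GFP under forskolin and give no measure of forskolin itself. The labels do not say which promoter drove the plasmids or whether a population was 1 clone or a pool. Each group had 1 array of total RNA, so no value below has a replicate error, an interval or a p-value, and each difference compares these 2 RNA samples.

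The proteasome is the main protease of the cytosol and nucleus and degrades proteins tagged with ubiquitin. Its core particle is a barrel of stacked rings, in which the alpha rings form the gate and the beta rings hold the proteolytic sites. The regulatory particle caps the barrel: its base carries a ring of ATPases that unfolds substrates, and its lid removes ubiquitin. NRF3, encoded by Nfe2l3, belongs to the cap'n'collar family of transcription factors, whose member NRF1 is known for raising proteasome genes together when proteasome activity falls.

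Values are on the log2 scale that robust multi-array averaging gives, and a difference is NRF3 minus GFP of these log2 values. Where a gene has a pair of values, the GFP array comes first. Genes counted as detected if either array gave at least 5.89, the median over all named probe sets, which 10162 genes did. A difference was counted when it was at least 1.5-fold, or 0.58 on the log2 scale, which is a rule of size and not a test. The control rows whose name holds neg have a 75th percentile of 7.52 in GFP and 7.85 in NRF3, called the control level here, and values under it may depend on background. Of these control rows, 66.5% also reached 5.89 on either array, so a detected gene need not lie above background. The control level was reached on both arrays by 6930 genes, 38 members among them. Nfe2l3 itself had a value of 6.04 in the GFP cells, which cannot be told from background, and of 10.1 in the NRF3 cells. All 7 melanocyte markers were detected, among them Tyr at 11.7 and 13.1 and Tyrp1 at 18.9 on each array. Their median difference was 0.05, with 4 of 7 above 0, from -0.555 for Mlana to 1.41 for Tyr. Of 14 measured markers of leukocytes, fibroblasts, endothelium and epithelium, 1 reached the floor, Pdgfrb, at 6.02 on the GFP array, under the median of 6.12 of those control rows.

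Of the 39 detected proteasome genes, 27 were at least 1.5-fold higher on the NRF3 array and 0 were that much lower, where 17.0% of all detected genes were that much higher and 23.6% that much lower. The median difference of these 39 members was 0.85, or 1.80-fold, beside -0.07 over all detected genes. At least 2-fold higher were 17 members, against 6.75% of all detected genes, and 0 members were 2-fold lower, against 11.0%. The 12 members within 1.5-fold lay mostly above 0 as well, since 37 of 39 differences were above 0, as were 45.8% of those of all detected genes. Ranked by difference among the 10162 detected genes, 21 members stood in the top 10% and 33 in the top 25%. An array of bulk RNA cannot tell more RNA per cell from more cells that make it. Psmg3 was the member that was measured but not detected.

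**Figure D1:**
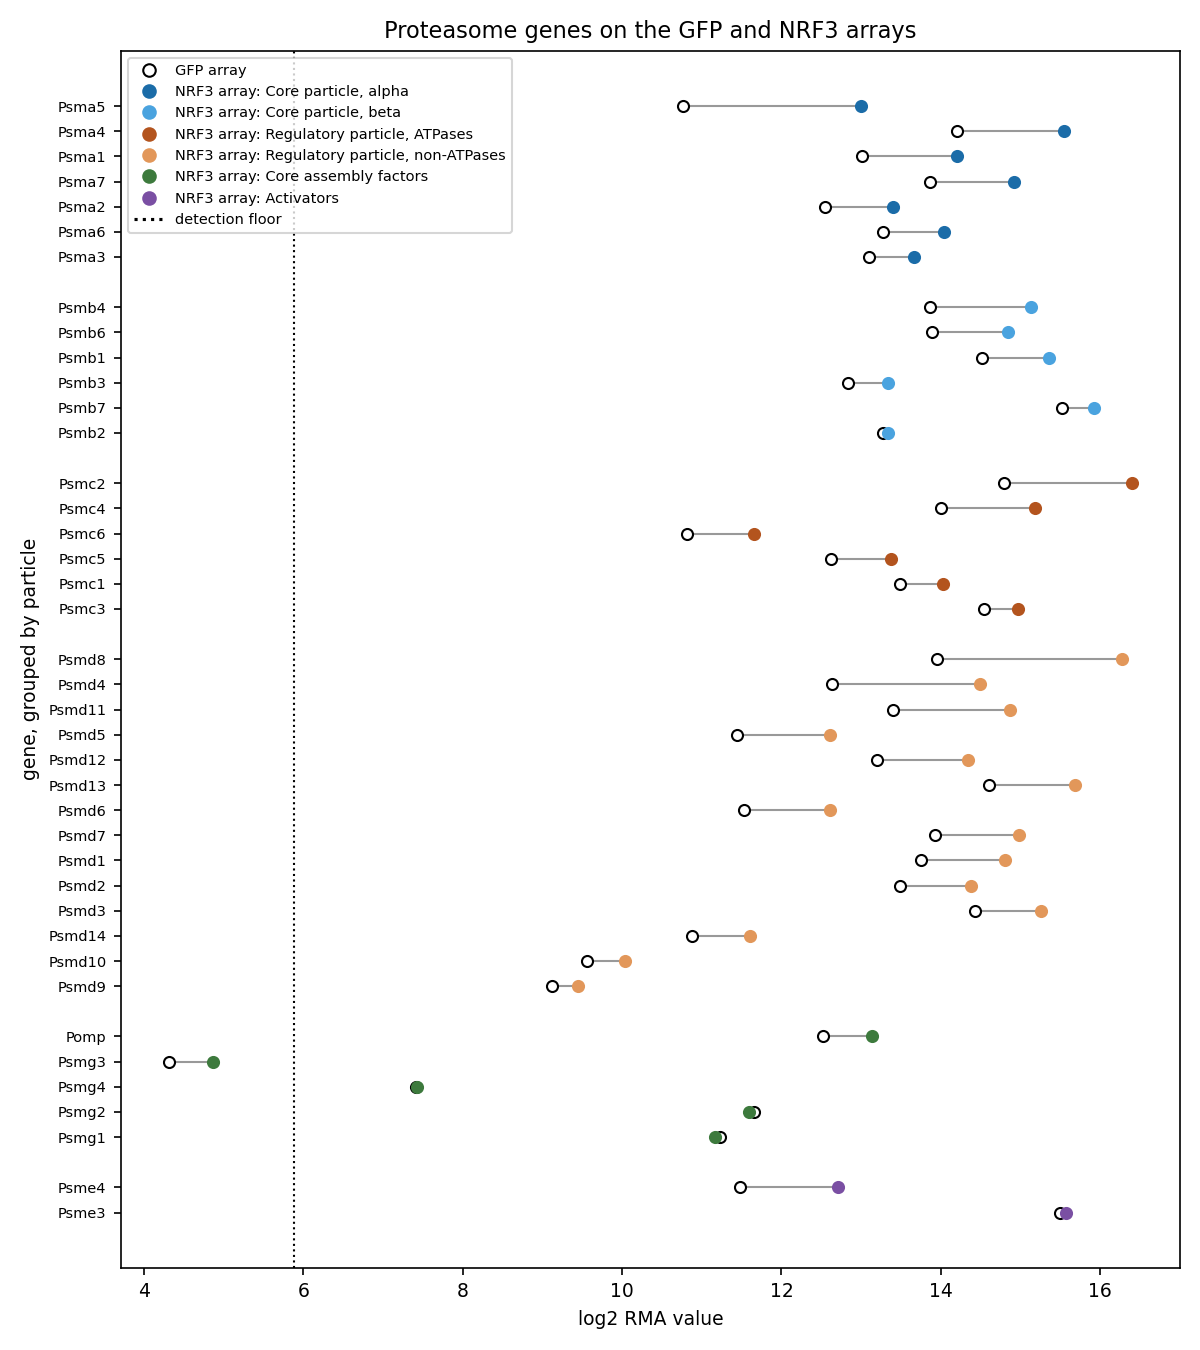
Log2 values of the 40 measured proteasome genes, with the gene on the vertical axis, grouped by particle and ordered by difference within each group. Open circles are the GFP array and filled circles the NRF3 array. The filled circle lies right of the open one for every gene except Psmg1 and Psmg2, and the lines are longest for Psmd8, Psma5 and Psmd4. The dotted line is the detection floor of 5.89, which Psmg3 does not reach.

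The 3 genes with the largest differences, Psmd8, Psma5 and Psmd4, came from the lid, the core and the base. The stretches before their transcript starts are shown because these genes carry the strongest shift among the members. The sequences are the 250 bases before the start in RefSeq, build GRCm38.p6, at chr7:29180674-29180923 on the minus strand for Psmd8, chr3:108256676-108256925 on the plus strand for Psma5 and chr3:95042615-95042864 on the minus strand for Psmd4. Each is written 5′ to 3′ on the strand of its gene, and capitals mark matches to the 3 motifs searched.
Psmd8: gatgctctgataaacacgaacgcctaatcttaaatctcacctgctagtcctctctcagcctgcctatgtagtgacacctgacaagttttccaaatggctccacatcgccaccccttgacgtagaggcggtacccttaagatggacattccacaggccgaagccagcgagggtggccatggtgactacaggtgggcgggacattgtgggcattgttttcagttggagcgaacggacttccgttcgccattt
Psma5: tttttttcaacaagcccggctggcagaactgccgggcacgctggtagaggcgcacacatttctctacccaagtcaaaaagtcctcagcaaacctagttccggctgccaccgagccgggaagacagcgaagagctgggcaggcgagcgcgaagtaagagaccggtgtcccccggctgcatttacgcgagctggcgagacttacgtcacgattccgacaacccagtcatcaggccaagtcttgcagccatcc
Psmd4: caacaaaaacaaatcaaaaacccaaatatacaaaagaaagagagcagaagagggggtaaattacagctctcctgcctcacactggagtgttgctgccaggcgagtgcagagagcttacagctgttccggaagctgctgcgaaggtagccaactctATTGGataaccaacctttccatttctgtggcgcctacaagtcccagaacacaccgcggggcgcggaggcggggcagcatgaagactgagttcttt

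The motifs were the antioxidant response element TGACNNNGC, to which cap'n'collar factors bind with small MAF partners, the CCAAT box CCAAT, which NF-Y binds, and the cAMP response element TGACGTCA, which CREB binds. Each was searched on both strands in the window from 250 bases before to 50 after each start. RefSeq promoters were given for 34 of the 41 members, and none was at hand for Psmb1, Psmb2, Psmb7, Psmc3, Psmd3, Psmd7 and Psmg2. The antioxidant response element was found in 6 of the 34, or 17.6%, beside 16.5% of the detected genes with a promoter. It stood in 14.0% of all genes with a promoter and in 12.4% of all 32851 promoters, counted singly. The share of the members thus lay close to that of the detected genes. The 6 were Psmb5, Psmb6, Psmc6, Psmd9, Psmd12 and Psme4. Over the 5 of them that were detected the median difference was 0.95, and over the 27 detected members with a promoter but no match it was 1.05. None of these matches overlapped another motif.

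The windows of these 5 matches are given because they hold the letters of the family's known element. The match is in capitals, and Psme4, Psmd12 and Psmc6 carry it on the opposite strand, where it reads GCNNNGTCA.
Psmb6: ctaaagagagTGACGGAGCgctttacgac
Psmd9: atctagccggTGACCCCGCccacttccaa
Psme4: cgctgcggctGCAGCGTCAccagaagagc
Psmc6: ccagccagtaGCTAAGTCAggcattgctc
Psmd12: tctGCTGTGTCAcatttgcccccctcaga
In GRCm38.p6 they lie, all on the plus strand, at chr11:70525338-70525366, chr5:123228149-123228177, chr11:30771758-30771786, chr14:45329587-45329615 and chr11:107479278-107479306, in the order printed. The matches begin 9 bases before the start for Psmb6, 31 for Psmd9 and 7 for Psme4, whose match runs over the start, but 227 for Psmc6 and 247 for Psmd12.

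A CCAAT box stood in 12 of the 34 members, or 35.3%, beside 44.2% of the detected genes with a promoter. The share was 41.1% of all genes with a promoter and 37.4% of all promoters. The 12 members with one had a median difference of 0.75 and the 20 detected members without one 1.09. The cAMP response element was found in 0 of the 34, beside 3.65% of the detected genes, 2.03% of all genes and 1.79% of all promoters. A match is a description of letters and does not show binding.

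The alpha subunits, whose tails form the gate of the core particle, were higher on the NRF3 array in 7 of 7 cases, and 6 of them passed 1.5-fold. Their median difference was 1.06, or 2.09-fold. Psma5 differed most in this ring, from 10.8 on the GFP array to 13.0 on the NRF3 array, a difference of 2.22 or 4.67-fold. Only 0.403% of the detected genes had a difference as high. Psma4 went from 14.2 to 15.6, a difference of 1.35, and Psma1 from 13.0 to 14.2, a difference of 1.19. Psma7 went from 13.9 to 14.9, a difference of 1.06. These 4 subunits were at least 2-fold higher, and the other 3 of the ring were not. Psma2, with 12.5 and 13.4, differed by 0.85, and Psma6, with 13.3 and 14.0, by 0.76. Psma3 lay just under the rule, with 13.1 and 13.7 and a difference of 0.56, or 1.48-fold. It passed the rule after median centring, at 0.69, after quantile normalization, at 0.63, and after subtraction of a lowess trend, at 0.60. Psma3 also passed it relative to its chromosome, at 0.72, and to its neighbours, at 0.75. The members of one ring, which are present in equal number in the finished particle, thus differed between 1.48-fold and 4.67-fold in RNA. Single probe sets respond unequally to the same change, and their part in this spread was not tested.

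The beta subunits had a median difference of 0.68 over 6 detected genes, and 3 of the 6 passed 1.5-fold. The alpha and beta medians, 1.06 and 0.68, came to 0.96 and 0.88 relative to chromosome medians and to 0.99 and 0.84 relative to neighbouring genes. The catalytic subunits were represented by Psmb6, which cuts after acidic residues, and Psmb7, which cuts after basic residues. Psmb6 went from 13.9 to 14.8, a difference of 0.95, and Psmb7 from 15.5 to 15.9, a difference of 0.40. Relative to its chromosome Psmb7 passed 1.5-fold, at 0.63. Among the beta subunits without a proteolytic site, Psmb4 had the largest difference, 1.27, with values of 13.9 and 15.1. Psmb1 went from 14.5 to 15.4, a difference of 0.85. The remaining pair stayed within 1.5-fold in the deposited values. Psmb3, at 12.8 and 13.3, differed by 0.50 and Psmb2, at 13.3 on each array, by 0.07. Psmb3 passed 1.5-fold after median centring, at 0.63, and relative to its chromosome and neighbours, at 0.66 and 0.68. Psmb2 was the subunit of the finished proteasome with the smallest difference of the 30 detected. Whether alpha and beta subunits differ in their response cannot be tested with 1 array per group.

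The ATPases, which form the unfolding ring of the base, were higher in 6 of 6 cases with a median difference of 0.80, and 4 passed 1.5-fold. Psmc2, which encodes Rpt1, went from 14.8 to 16.4, a difference of 1.60 or 3.03-fold. Psmc4, encoding Rpt3, went from 14.0 to 15.2, a difference of 1.19. Both were more than 2-fold higher, unlike the other 4 ATPases. Psmc6, encoding Rpt4, went from 10.8 to 11.7 and Psmc5, encoding Rpt6, from 12.6 to 13.4, with differences of 0.84 and 0.76. Psmc1, for Rpt2, and Psmc3, for Rpt5, stayed within 1.5-fold in the deposited values. They lay at 13.5 and 14.0 for a difference of 0.54 and at 14.5 and 15.0 for one of 0.42. Psmc1 passed 1.5-fold after median centring, at 0.67, after quantile normalization, at 0.60, and relative to its chromosome, at 0.70. Psmc3 passed it relative to its chromosome, at 0.64.

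The other subunits of the base were Psmd2 and Psmd1, the large scaffold subunits Rpn1 and Rpn2, and Psmd4, the ubiquitin receptor Rpn10. All 3 passed 1.5-fold. Psmd4 went from 12.6 to 14.5, a difference of 1.85 or 3.62-fold. Psmd1 went from 13.8 to 14.8 and Psmd2 from 13.5 to 14.4, with differences of 1.05 and 0.90. Psmd1 lies on chromosome 1, where the other detected genes had a median difference of -0.51. Relative to the 25 nearest detected genes on each side, Psmd1 was higher by 1.69.

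Of the lid, 8 of the 8 subunits named as members were at least 1.5-fold higher, and 6 were at least 2-fold higher. The median difference was 1.09, and the differences ran from 0.73 to 2.33. The small lid subunit gene Sem1, which is no member, differed by 0.20. Psmd8, encoding Rpn12, went from 13.9 to 16.3, a difference of 2.33 or 5.02-fold, the largest of the members. Psmd11, encoding the scaffold subunit Rpn6, went from 13.4 to 14.9, a difference of 1.47. Psmd12, for Rpn5, went from 13.2 to 14.3 and Psmd13, for Rpn9, from 14.6 to 15.7, with differences of 1.13 and 1.09. Psmd6, for Rpn7, went from 11.5 to 12.6, also a difference of 1.09. These 5 lid subunits and Psmd7 passed 2-fold, and the other 2 did not. Psmd3, for Rpn3, differed by 0.83, with 14.4 and 15.3. Psmd14, which encodes the deubiquitinating enzyme Rpn11, had the smallest difference of these 8, 0.73, with 10.9 and 11.6. Its inactive partner in the lid, Rpn8, is encoded by Psmd7, which went from 13.9 to 15.0, a difference of 1.05. Psmd7 lies on chromosome 8, where the other detected genes had a median difference of 0.56, and relative to its nearest detected neighbours it was higher by 0.21 only. The part of the neighbourhood in its difference was not tested.

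**Figure D2:**
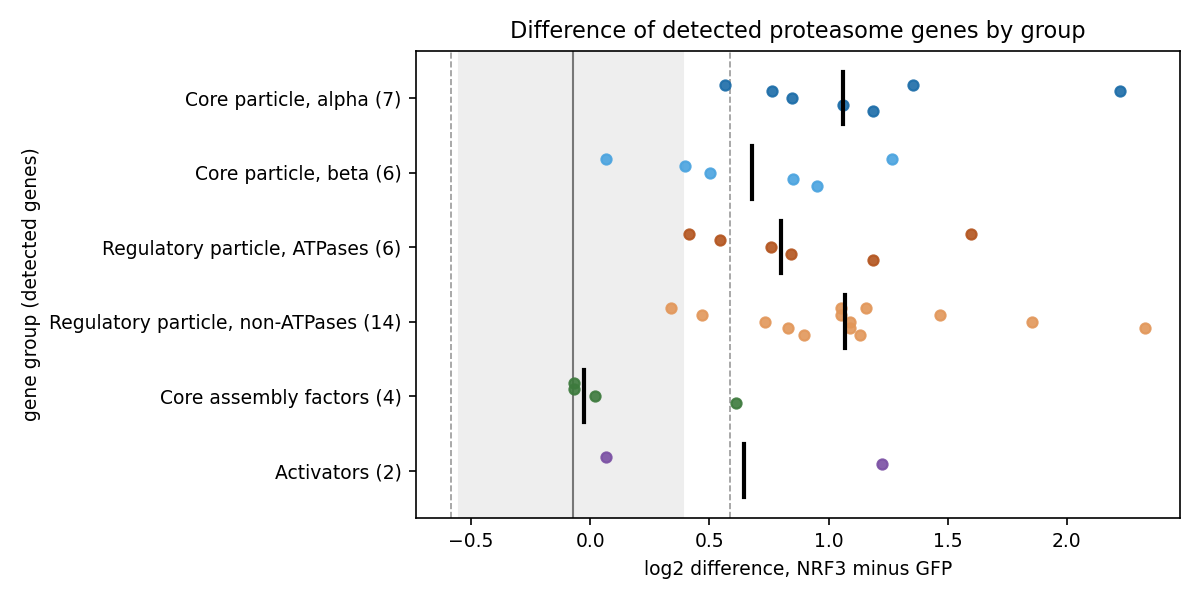
Log2 difference, NRF3 minus GFP, of each detected proteasome gene by group, 1 point per gene, with the number of genes in brackets. Black bars are group medians, the grey band is the interquartile range of all detected genes from -0.55 to 0.39 with their median as a line, and dashed lines mark 1.5-fold. Alpha and non-ATPase medians lie at 1.06 and 1.07, and the median of the core assembly factors at -0.02.

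The genes whose products build the proteasome without staying in it had smaller differences on average than the subunits, which was not tested. Of 7 detected chaperones of core and base assembly, 2, or 28.6%, passed 1.5-fold, beside 17.0% of all detected genes. Their mean difference was 0.35. Of the 30 detected subunits, 24 passed it, with a mean of 1.03. The chaperones were also dimmer, with a mean level of 9.66 over 8 measured on the GFP array, against 13.4 for the subunits. The part of this gap in level was not tested. Psmg1 and Psmg2 encode the paired chaperones that start the alpha ring. Psmg1 lay at 11.2 on both arrays and Psmg2 at 11.7 and 11.6, with a difference of -0.07 each, which turned to 0.06 each after median centring and to just above 0 after quantile normalization. Psmg4, at 7.41 and 7.43, differed by 0.02 with both values under the control level, so they may depend on background. Its partner Psmg3, at 4.32 and 4.87, was not detected. Pomp, the maturation factor that accompanies the beta ring, went from 12.5 to 13.1, a difference of 0.61 or 1.53-fold. Its difference was under 1.5-fold relative to its chromosome, at 0.47, and to its neighbours, at 0.31.

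Psmd5, Psmd9 and Psmd10 carry subunit names but encode chaperones of the base. Psmd5 went from 11.4 to 12.6, a difference of 1.16 or 2.23-fold. Psmd10, which encodes gankyrin, lay at 9.57 and 10.0, a difference of 0.47, or of 0.60 after median centring. Psmd9 lay at 9.12 and 9.45, a difference of 0.34.

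The activators, which open the core particle without ubiquitin, went separate ways in size. Psme4, which encodes the nuclear activator PA200, went from 11.5 to 12.7, a difference of 1.22 or 2.34-fold. Psme3, which encodes the nuclear activator PA28 gamma, lay at 15.5 and 15.6, a difference of 0.07. Both genes lie on chromosome 11, whose other detected genes had a median difference of -0.16.

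Proteasome genes on many chromosomes shared the direction. The 39 detected members lay on 16 chromosomes, and on 14 of these each member was above the median of the other detected genes there. Several of the 14 held 1 member only. Among them was chromosome 18, where Psmg2 was lower on the NRF3 array, at -0.0685, just above the median of -0.072. Chromosome 11 held the most, 8 members with a median of 0.89, all above the median of -0.16 of its 828 other detected genes. Of the 27 members past 1.5-fold, 25 passed it under each of 5 other scalings or position corrections, and Psmd7 and Pomp did not.

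The members were mostly bright. Of 39, 31 had a mean of both arrays between 12 and 16, and 24 of the 31 were at least 1.5-fold higher, where 16.8% of the 1723 detected genes in that band were. Their median difference was 1.05, beside -0.04 over the band. Across the 39 members, mean level and difference had a Pearson r of 0.35, given as a description over genes that share the same 2 arrays. Psmc2 and Psmd8 exceeded 16 on the NRF3 array, and no member exceeded it on both arrays.

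**Figure D3:**
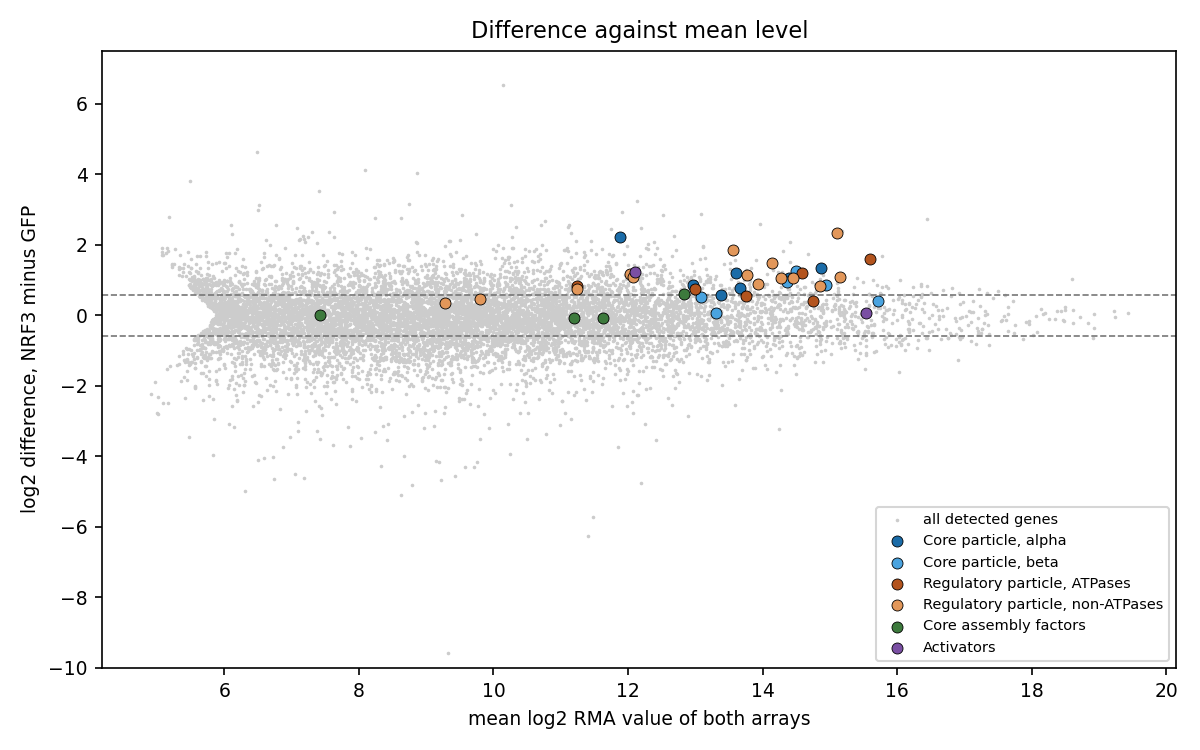
Log2 difference, NRF3 minus GFP, against the mean log2 value of both arrays for the 10162 detected genes in grey and the 39 detected proteasome genes in colour by group. Dashed lines mark 1.5-fold either way. No coloured point lies under the lower dashed line, and 31 of the 39 lie between 12 and 16 on the horizontal axis.

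The inducible and tissue-specific forms of the proteasome were near background or within 1.5-fold in the deposited values. Of 3 detected genes, 0 passed it either way, where 17.0% of all detected genes were that much higher and 23.6% lower. Relative to neighbouring genes 1, Psmb10, was lower by more than 1.5-fold. Psmb8, Psmb9 and Psmb10 encode the catalytic subunits of the immunoproteasome, which replace the standard ones under interferon. Psmb8 was not detected, at 4.28 and 4.43, nor was Psmb9, at 4.80 and 4.11. Psmb10 lay at 6.16 and 6.26, under the control level on each array, and differed by 0.11. It lies on chromosome 8, and its difference turned to -0.46 relative to its chromosome and to -0.80 relative to its neighbours, which passes 1.5-fold lower. The thymus subunit gene Psmb11, at 3.66 and 3.57, and the germ cell subunit gene Psma8, at 4.86 and 4.36, were not detected either. Psme1 and Psme2 encode the interferon-inducible activator PA28 alpha and beta. Psme1, at 14.0 and 13.8, differed by -0.17 and Psme2, at 10.3 and 10.2, by -0.10. Both turned above 0 relative to neighbouring genes, to 0.16 and 0.24, and Psme2 also did after median centring, at 0.02, after quantile normalization, at 0.01, and relative to its chromosome, at 0.05.

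Genes of proteins that bind or regulate the proteasome were mixed. Of the 10 that were measured, all were detected. The NRF3 array was higher by 1.5-fold or more for 4, or 40%, and lower for 0. Of all detected genes, 17.0% were that much higher and 23.6% that much lower. The median difference of the 10 was 0.30. Txnl1, a thioredoxin-like protein bound to the regulatory particle, went from 12.6 to 13.8, a difference of 1.15. Zfand5, a proteasome activator, went from 14.5 to 15.3, a difference of 0.83. Usp14, the deubiquitinating enzyme on the base, went from 10.5 to 11.3, a difference of 0.78. Ube3c, a ubiquitin ligase that acts on the proteasome, went from 12.5 to 13.2, a difference of 0.62, which was 0.48 relative to its chromosome.

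The other 6 stayed within 1.5-fold in the deposited values. Uchl5, the second deubiquitinating enzyme of the base, lay at 11.4 and 11.0, a difference of -0.31. It lies on chromosome 1, and relative to its neighbours it was at 0.36. Sem1, the small lid subunit that is not named as a Psm gene, lay at 15.2 and 15.4, a difference of 0.20. Ecpas, a proteasome adaptor, lay at 10.7 and 11.1 with a difference of 0.41. It passed 1.5-fold relative to its chromosome, at 0.67, and to its neighbours, at 0.59. In the deposited values none of these 3 carried a difference as large as any of the 8 lid members. Relative to neighbours, Ecpas and Uchl5 lay above the lid member Psmd7, at 0.21, and Sem1, at -0.06, did not. Psmf1, the inhibitor PI31, lay at 14.0 and 13.7, a difference of -0.26. Akirin2, which carries proteasomes into the nucleus, differed by 0.02, and Zfand2a by -0.07, or by 0.05 after median centring. Adrm1 and Paaf1 were not analysed here.

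Of the genes by which cap'n'collar factors reach the proteasome genes, Nfe2l1, which encodes NRF1, lay at 14.8 and 14.7, a difference of -0.10. That difference turned to 0.03 after median centring and to 0.06 relative to its chromosome. Nfe2l2, which encodes NRF2, lay at 8.02 and 7.56, a difference of -0.46, with the NRF3 value under the control level. Ngly1, the enzyme that strips sugars from NRF1 and thereby helps to activate it, lay at 6.82 and 7.78. Its difference of 0.95 may depend on background, since both values lie under the control level. Ddi2, the protease that cleaves NRF1, was not analysed here.

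Other large complexes were set beside the proteasome. The COP9 signalosome, a relative of the lid in architecture, had a median difference of -0.34 over 9 genes, or 0.06 relative to neighbouring genes, with 2 at least 1.5-fold higher and 1 lower. Its range ran from -0.59 for Gps1 to 0.97 for Cops4. The translation factor eIF3, also built from lid-like subunits, had a median of 0.29 over 11 genes, with 2 higher and 2 lower, from -1.03 for Eif3a to 0.67 for Eif3e. The CCT chaperonin, another stacked ring that uses ATP, had a median of 0.06 over 7 genes with 0 higher and 1 lower, from -0.63 for Tcp1 to 0.43 for Cct4. At least 1.5-fold higher were thus 22.2% of the COP9 genes, 18.2% of the eIF3 genes and 0 of the CCT genes. Of all detected genes, 17.0% were that much higher and 23.6% that much lower. The smallest difference of the 8 lid members, 0.73 for Psmd14, exceeded those of 8 of the 9 COP9 genes. With 1 array per group, the difference between the complexes was not tested.

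**Figure D4:**
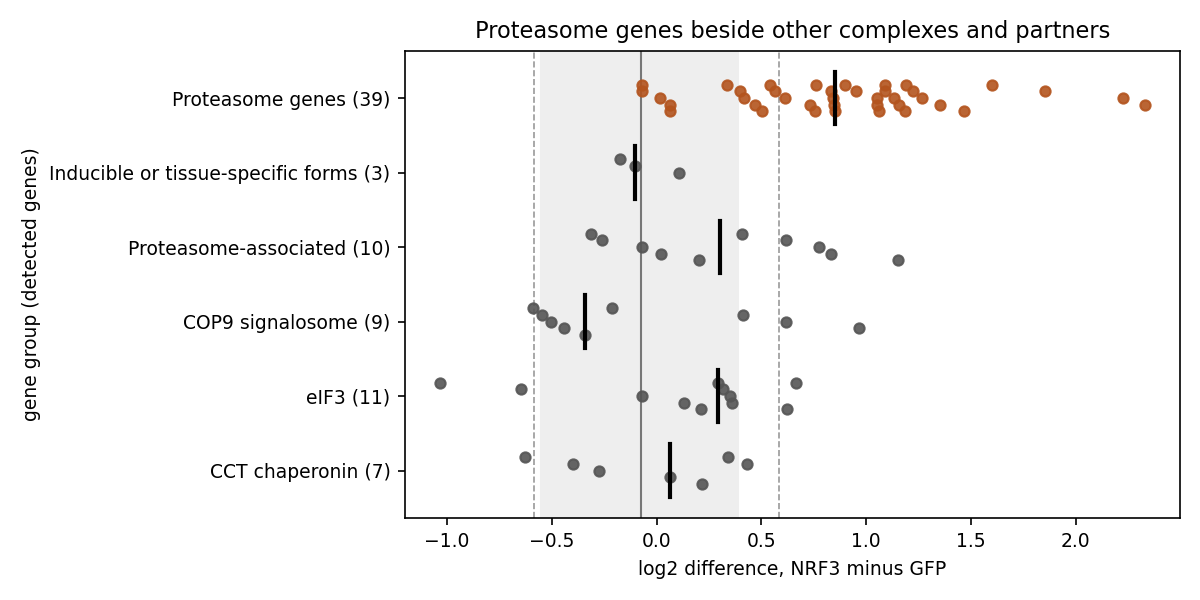
Log2 difference, NRF3 minus GFP, of the detected proteasome genes beside their inducible or tissue-specific forms, proteasome-associated genes and 3 other complexes, 1 point per gene, with the number of genes in brackets. Black bars are medians, the grey band and line are the interquartile range and median of all detected genes, and dashed lines mark 1.5-fold. The proteasome median of 0.85 lies right of the dashed line, and the medians of the other lists lie between -0.34 and 0.30.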

How the data were processed

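Total RNA (100.0 ng) was labelled with biotin, per the labels' protocols. The deposited log2 values were made with Affymetrix Expression Console and RMA, per the submitters' processing notes; software version and genome build: not given in the sources used here. From these, NRF3 minus GFP was computed as deposited with Python 3.11.15, pandas 2.3.3 and statsmodels 0.14.6. Genes with several probe sets took the one with the highest mean. Arrays give no read depth, and their number, 1 per group, limits the precision. No model was fitted; the counting steps were tested on simulated data.

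Named were all members, the partner lists, and the highest and lowest gene of each other complex. Members and lists were chosen with earlier results of these data known. Alternatives were median centring, quantile normalization, a lowess trend (span 0.3), other floors, the mean over probe sets, a 2-fold rule, leaving out chromosomes 1 and 8, and subtracting chromosome medians; subtracting the median of 25 neighbours a side was added after seeing the data. Promoters and their printed coordinates came from RefSeq (GRCm38.p6). Gene order for the neighbour values came from RefSeq gene starts. The array's build is not stated, so no coordinates of probe sets are given.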

Additional observations from a re-analysis of the deposited data

How the results depend on the processing

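Under the 10 alternatives that kept the 1.5-fold rule, 37 to 40 members were counted, and the number lower was 0. The number higher lay between 25 of 37, without chromosomes 1 and 8, and 31 of 39, after median centring. Of all genes counted under these alternatives, 15.0% to 21.8% were that much higher and 16.3% to 24.1% that much lower. At 2-fold, 17 members were higher, beside 6.75% of all detected genes. The median difference of the members ranged from 0.85 to 0.98 over the same alternatives. Median centring made the medians of the 2 arrays over the detected genes equal, which does not set the median difference to 0. It moved the median difference of all detected genes from -0.07 to 0.05. It turned the split of all detected genes past 1.5-fold from 1728 higher and 2396 lower into 2218 higher and 1925 lower, and the split of the members was then 31 and 0. Of 102 alternative group and list medians, 1 moved by over 1.5-fold: the base subunits Psmd1, Psmd2 and Psmd4 went from 1.05 to 1.69 relative to their neighbours, a value set by Psmd1. No called difference changed sign. The mean over probe sets could not change any value of the members or the other lists, since each of these genes had 1 probe set. With 1 array per group, no setting leaves out a replicate.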
